A study of Homo sapiens with 4 samples.

Results

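The peaks of accessible chromatin at 9 genes of the JAK-STAT pathway were examined in LM2 breast cancer cells. The genes were STAT2, STAT3, STAT4, STAT5A, STAT5B and STAT6, and the inhibitor genes SOCS1, SOCS2 and SOCS3. A peak belonged to a gene if it lay inside the gene or within 10 kb of either end, by the gene positions of GRCh38. This rule used no measured value and took 88 of the 190348 peaks, of which 62 lay inside a gene of the set and 26 lay outside. Because STAT5B, STAT5A and STAT3 are neighbours, 8 peaks belonged to 2 genes each and the 88 peaks made 96 pairs of gene and peak. Of the 88 peaks, 83 had enough counts to be tested, and the other 5 never exceeded 26 counts in a library.

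Accessibility was measured by ATAC-seq, in which the Tn5 transposase cuts open DNA and tags it for sequencing. LM2 is a derivative of the human line MDA-MB-231 with a raised potential to form lung metastases. Both groups were grown in medium with puromycin: cells carrying a deletion of CECR2 made with guide sg1 (2 libraries), and cells with a non-targeting guide as control (2 libraries), with 50000 cells per library. The deletion rests on 1 guide, and nothing in the labels says that replicates were grown separately, so the tests set the groups against a spread that may be only technical.

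In this pathway a cytokine brings together receptor chains, the attached Janus kinases phosphorylate STAT proteins, and paired STATs enter the nucleus and bind DNA at GAS or ISRE motifs. SOCS genes are themselves induced by STATs, and their proteins bind receptors or kinases and shut the signal down. In breast tissue STAT5 proteins carry the prolactin signal, while STAT3 is often active in breast tumours. CECR2 is a bromodomain protein of a chromatin remodelling complex.

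The start-site sequences that the results turn on are those of SOCS1, SOCS3, STAT5A and STAT5B, whose peaks changed there, and of STAT3, whose peak did not pass the test. Each runs 5′ to 3′ on the gene's own strand, from 250 bases before the start to 50 after it, from RefSeq (GRCh38.p14). Capitals mark bases inside a tested peak. SOCS1 lies at chr16:11256155-11256454 (minus strand), the first SOCS3 start at chr17:78360876-78361175 (minus) and the second at chr17:78359618-78359917 (minus). STAT5A lies at chr17:42287189-42287488 (plus), STAT5B at chr17:42276342-42276641 (minus) and STAT3 at chr17:42388393-42388692 (minus).
SOCS1: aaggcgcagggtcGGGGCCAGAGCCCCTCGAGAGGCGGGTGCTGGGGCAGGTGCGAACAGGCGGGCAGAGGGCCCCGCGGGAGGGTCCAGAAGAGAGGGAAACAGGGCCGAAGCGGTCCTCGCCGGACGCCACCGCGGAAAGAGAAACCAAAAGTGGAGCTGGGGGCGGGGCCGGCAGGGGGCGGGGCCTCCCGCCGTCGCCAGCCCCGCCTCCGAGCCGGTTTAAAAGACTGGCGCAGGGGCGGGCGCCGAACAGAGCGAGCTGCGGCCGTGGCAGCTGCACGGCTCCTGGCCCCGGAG
SOCS3 first start: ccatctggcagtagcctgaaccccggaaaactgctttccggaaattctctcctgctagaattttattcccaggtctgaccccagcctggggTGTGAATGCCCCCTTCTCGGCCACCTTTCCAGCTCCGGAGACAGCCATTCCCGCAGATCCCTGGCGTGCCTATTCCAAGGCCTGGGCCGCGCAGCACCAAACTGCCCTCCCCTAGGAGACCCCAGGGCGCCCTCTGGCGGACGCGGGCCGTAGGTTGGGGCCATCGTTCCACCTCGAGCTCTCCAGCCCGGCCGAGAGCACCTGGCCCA
SOCS3 second start: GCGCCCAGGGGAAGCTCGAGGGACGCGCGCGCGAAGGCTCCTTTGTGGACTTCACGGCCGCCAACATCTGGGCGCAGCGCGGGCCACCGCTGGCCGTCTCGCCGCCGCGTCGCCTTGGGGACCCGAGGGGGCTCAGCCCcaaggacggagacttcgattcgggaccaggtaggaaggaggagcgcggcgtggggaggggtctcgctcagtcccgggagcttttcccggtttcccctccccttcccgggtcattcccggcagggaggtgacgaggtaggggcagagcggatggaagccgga
STAT5A: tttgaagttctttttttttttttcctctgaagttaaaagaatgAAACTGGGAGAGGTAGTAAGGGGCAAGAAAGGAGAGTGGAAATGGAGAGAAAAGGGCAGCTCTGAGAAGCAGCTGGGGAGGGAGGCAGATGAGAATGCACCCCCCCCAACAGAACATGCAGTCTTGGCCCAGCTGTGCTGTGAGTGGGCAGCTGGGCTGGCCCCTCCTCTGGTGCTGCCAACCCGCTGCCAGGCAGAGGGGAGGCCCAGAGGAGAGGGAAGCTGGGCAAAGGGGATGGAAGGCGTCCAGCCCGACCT
STAT5B: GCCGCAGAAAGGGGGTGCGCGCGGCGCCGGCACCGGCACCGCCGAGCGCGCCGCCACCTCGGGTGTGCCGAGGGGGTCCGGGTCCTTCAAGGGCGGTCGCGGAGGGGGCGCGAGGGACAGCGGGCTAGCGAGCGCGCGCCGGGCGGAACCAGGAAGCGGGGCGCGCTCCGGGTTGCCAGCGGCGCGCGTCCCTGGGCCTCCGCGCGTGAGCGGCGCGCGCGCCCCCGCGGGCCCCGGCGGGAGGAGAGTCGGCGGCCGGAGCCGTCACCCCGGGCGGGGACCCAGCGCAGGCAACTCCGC
STAT3: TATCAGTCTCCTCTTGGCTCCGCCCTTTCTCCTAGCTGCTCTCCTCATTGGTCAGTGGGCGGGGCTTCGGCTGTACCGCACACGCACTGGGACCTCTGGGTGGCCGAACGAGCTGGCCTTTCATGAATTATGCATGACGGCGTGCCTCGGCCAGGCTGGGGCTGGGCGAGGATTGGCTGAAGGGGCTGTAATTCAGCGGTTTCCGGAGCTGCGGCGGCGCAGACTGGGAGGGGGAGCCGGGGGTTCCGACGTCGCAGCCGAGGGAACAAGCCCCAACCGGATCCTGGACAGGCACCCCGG

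RefSeq gave 12 start sites for 8 of the 9 genes; SOCS2 had no entry. STAT5B had the richest sequence, with 82.0% G and C and 55 CpG pairs in its 300 bases, and the shown STAT5A start was among the poorest in CpG, with 56.3% and 3. The median over all 35116 RefSeq promoters of this length was 58.7% and 14. Motifs were searched on both strands, and no matches overlapped. GAS, written TTCNNNGAA, was found in 0 of the 12 sequences and in 7.66% of all promoters. At that share, a count of 0 in 12 sequences says little. ISRE motifs were not searched for. AP-1, TGANTCA, matched once, as TGAATCA at 243 bases before a STAT4 start and outside any tested peak (7.71% of all promoters held a match). These are letter matches only; binding was not measured.

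The sg1 libraries were deeper, with 58341297 and 52150389 counts against 25610655 and 18950793 in control libraries. At the 83 tested peaks the median count was 184 and 149 in sg1 libraries and 65 and 51 in control libraries. Peaks in the first 250 kb of chromosome 1 took 25.4% of the counts in both sg1 libraries, against 18.0% and 17.9% in control libraries, and were left out of scaling and tests. Over the 88 peaks, the mean chi-square per peak between replicates was 1.92 for sg1 and 1.80 for control, and between groups it was 10.8 to 14.1. Of 5 tested CECR2 peaks, only chr22:17528944-17529762 passed the test, with 9.31 and 11.3 CPM in sg1 libraries against 8.65 and 6.91 CPM in control libraries (log2 fold change 0.39, adjusted p = 0.0430 by edgeR). Peak counts do not read a small deletion, so they do not check the label. Of the 5 markers of LM2 cells all had a tested gene-end peak, and VIM had 79.7 ± 3.29 CPM in sg1 and 85.6 ± 0.365 CPM in control (SD, n = 2 each). MSN was the marker of these that passed the test, with 3.20 ± 0.297 CPM in sg1 and 6.02 ± 0.767 CPM in control (log2 fold change -0.92, adjusted p = 0.000453 by edgeR). The 4 tested of 5 leukocyte markers spanned 0.330 to 27.0 CPM in sg1 libraries and 0.681 to 34.0 CPM in control libraries, with PTPRC lowest and CD3E highest. CD3E was called lower in sg1 (-0.26, adjusted p = 0.0145 by edgeR). Gene-end peaks lie within 1 kb of either end of a gene, so the CD3E peak need not mark its start. The 4 tested of 5 luminal markers spanned 0.226 to 20.6 CPM in sg1 libraries and 0.389 to 19.1 CPM in control libraries, with CDH1 lowest, and 0 of them passed by edgeR or DESeq2, also at an unadjusted p under 0.05 in edgeR. ESR1 had no tested gene-end peak. Of 4 fibroblast and endothelial markers PDGFRB alone had one, shared with CSF1R, at 24.4 ± 0.614 CPM in sg1 and 25.4 ± 0.394 CPM in control. The part of other cell types in the results was not tested.

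Peaks are given below in CPM, a peak's count for every 1000000 counts of the library's scaled total, and as log2 fold changes of sg1 over control with a standard error (SE). This SE was derived from the test, as the size of the log2 fold change over the square root of the F statistic. Calls are at a false discovery rate of 0.05 by edgeR's quasi-likelihood test with Benjamini-Hochberg adjustment over all 184717 peaks tested. Of the 83 peaks, 16 (19.3%) were lower in sg1, 18 (21.7%) were higher and 49 did not pass. Over all 119452 tested peaks within 10 kb of a protein-coding gene, 15.5% were lower and 12.2% higher. Among called peaks falls were larger than rises: the 16 lower peaks had a median log2 fold change of -1.14 (range -3.28 to -0.68) and the 18 higher peaks one of 0.52 (0.22 to 1.03). Low peaks need a larger change to pass than tall ones, so sizes among called peaks also depend on height. The part of height in this difference was not tested. By edgeR, 9 peaks fell and 1 rose by more than 2-fold, where the shares over all near-gene peaks were 7.86% and 4.41%. The 2 sg1 libraries lay wholly above or below the 2 control libraries at 58 of the 83 peaks, including all 34 called ones, against 63.5% of all near-gene peaks. In such bulk libraries, fewer cells with an open site and less opening per cell cannot be told apart.

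Some settings moved these counts by over 1.5 times. DESeq2 gave 8 lower and 11 higher, where it called 9.67% lower and 4.59% higher among all tested peaks, and scaling on gene-end peaks alone gave 19 lower and 8 higher (23.3% and 6.77% of all tested peaks). That scaling shifted the median of all tested peaks to -0.14, against 0.02 with the scaling used here, so the median of the 83 peaks was 0.15 here and -0.01 there. With a library left out the counts were 9 lower and 10 higher without sg1 replicate 1, 8 and 10 without sg1 replicate 2, and 10 and 15 without control replicate 1.

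**Figure D1:**
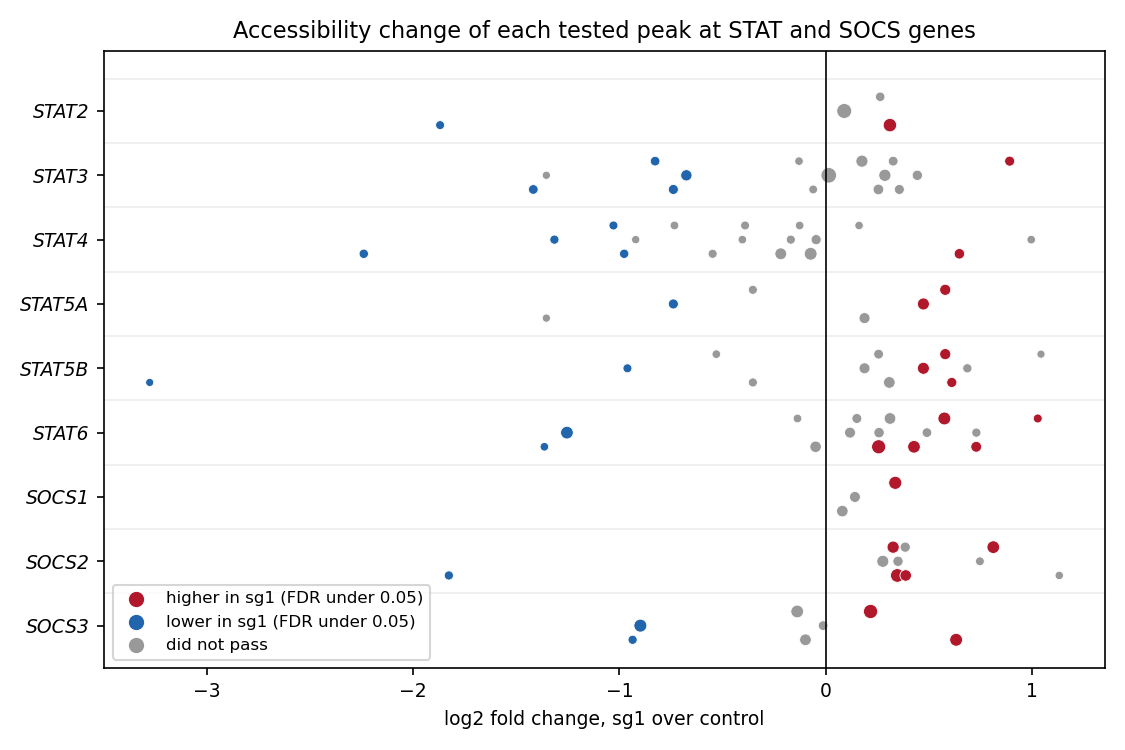
Log2 fold change (x axis, sg1 over control) of every tested peak of the 9 genes (y axis); each point is a peak, drawn larger for a higher mean CPM, and a peak of 2 genes is drawn in both rows. By edgeR 8 of the 9 genes have points called on both sides of 0 (5 by DESeq2), and the 3 SOCS1 points lie at or above 0.08.

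By edgeR, called peaks on both sides of 0 were seen in 8 of the 9 genes, all but SOCS1, and by DESeq2 in 5: STAT2, STAT3, STAT6, SOCS2 and SOCS3. The called STAT5A peaks are all shared with STAT5B or STAT3. Among all 13914 protein-coding genes with 3 to 17 tested peaks, 23.7% had this. Genes with more peaks have it more often: it held for 5 of the 5 member genes with 10 to 17 tested peaks, against 48.1% of 2962 genes, and for 3 of the 4 with 3 to 9 tested peaks, against 17.1% of 10952 genes.

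STAT3, the transcription factor of IL6-family cytokines, had a start-site peak that did not pass the test, while peaks inside and upstream of the gene changed. Of its 15 tested peaks 4 fell, 1 rose and 10 did not pass. The start-site peak chr17:42387668-42389244, which covers all 300 bases shown for STAT3, had 53.1 and 53.9 CPM in sg1 libraries against 52.4 and 53.6 CPM in control libraries (log2 fold change 0.01, SE 0.06, adjusted p = 0.892 by edgeR). The groups overlapped there, and scaling on gene-end peaks, thinning to equal depth and leaving out control replicate 1 turned this value slightly negative. A peak 10.2 kb upstream of the start, chr17:42398416-42398817, had 1.18 and 1.65 CPM in sg1 libraries against 4.13 and 3.33 CPM in control libraries. It was 2.67-fold lower in sg1 (log2 change -1.42, SE 0.26, adjusted p = 8.12e-05 by edgeR), with no overlap of the groups. Inside the gene and 59.3 kb downstream of the start, chr17:42328968-42329321 had 6.35 and 6.59 CPM in sg1 libraries against 10.3 and 10.4 CPM in control libraries (-0.68, SE 0.14, adjusted p = 0.000394 by edgeR). Further peaks inside STAT3 fell, chr17:42340590-42341141 by 0.83 and chr17:42319862-42320305 by 0.74 on the log2 scale (adjusted p = 0.0151 and 0.00976 by edgeR). The rising STAT3 peak, chr17:42342454-42342959, lies close to the first of these and had 4.61 and 4.49 CPM in sg1 libraries against 3.01 and 1.76 CPM in control libraries (0.89, SE 0.23, adjusted p = 0.00353 by edgeR). The call at 42340590 was lost in DESeq2 (adjusted p = 0.117), when thinned (0.0892), without control replicate 1 (0.241) and without either sg1 library (0.0577 and 0.151). The calls at 42319862 and 42342454 also depended on libraries: the adjusted p at 42319862 was 0.102 without control replicate 1, 0.0514 without sg1 replicate 1 and 0.128 without sg1 replicate 2 (0.0751 in DESeq2, and 0.346 at -0.32 with counts thinned to equal depth), and 0.0599 at 42342454 without control replicate 2.

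STAT5A and STAT5B, the near-identical pair that carries prolactin and growth hormone signals, were more accessible in sg1 at some of their starts. These were the STAT5B start that RefSeq gave and the more upstream STAT5A starts. How reads that match both copies were counted was not given in the sources used here. The STAT5A start peak chr17:42287232-42287959 had 9.18 and 8.98 CPM in sg1 libraries against 6.03 and 6.13 CPM in control libraries (log2 fold change 0.58, SE 0.15, adjusted p = 0.00337 by edgeR). Its 257 bases in the STAT5A sequence shown belong to the start with few CpG pairs. The peak over the most downstream STAT5A start, at chr17:42288138-42288791 in a CpG-rich sequence, had 7.66 and 7.41 CPM in sg1 libraries against 7.68 and 5.35 CPM in control libraries and did not pass (0.19, SE 0.16, adjusted p = 0.417 by edgeR). STAT5B, on the minus strand, extends to 42288370, so the 5′ end of its extent lies under this uncalled peak. The called STAT5A start peak also lies inside STAT5B. The STAT5B start peak chr17:42275879-42277645 spans all 300 bases shown and had 13.9 and 15.2 CPM in sg1 libraries against 10.8 and 10.1 CPM in control libraries (0.47, SE 0.12, adjusted p = 0.00227 by edgeR). At these called start peaks both sg1 libraries lay above both control libraries, although the STAT5B call was lost without sg1 replicate 2 (adjusted p = 0.0625 by edgeR).

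Within the body of STAT5B changes went both ways. Of its 12 tested peaks 2 fell, 3 rose and 7 did not pass; of the 6 tested STAT5A peaks, which share members with both neighbours, 1 fell, 2 rose and 3 did not pass. The other rising STAT5B peak, chr17:42254955-42255695, had 4.66 and 4.34 CPM in sg1 libraries against 2.58 and 3.39 CPM in control libraries (0.61, SE 0.21, adjusted p = 0.0306 by edgeR). The falling peak chr17:42247807-42248111 had 0.994 and 0.609 CPM in sg1 libraries against 1.75 and 1.37 CPM in control libraries (-0.96, SE 0.36, adjusted p = 0.0412 by edgeR). DESeq2 called neither (adjusted p = 0.164 and 0.230), and both calls were lost without control replicate 1 (0.268 and 0.223) and without sg1 replicate 2 (0.0966 and 0.365), the first also without sg1 replicate 1 (0.191). The other falling peak, chr17:42240318-42240468, held 2 counts in each sg1 library against 11 and 7 in control libraries. A fragment can count at both ends, so the interval given next, which takes counts as independent, may be too narrow. The ratio of sg1 to control counts, scaled to library size, was 0.0953 with a 95% exact interval of 0.0235 to 0.289 for counting error only, and the call was lost without either sg1 library (adjusted p = 0.0759 and 0.0635 by edgeR).

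STAT6, which answers IL4 and IL13, had the peak with the smallest p of the 83. The peak chr12:57118619-57119295, 8.67 kb upstream of the start and in no annotated gene, had 11.1 and 9.38 CPM in sg1 libraries against 24.2 and 25.0 CPM in control libraries. It was 2.39-fold lower in sg1 (log2 change -1.25, SE 0.10, adjusted p = 1.72e-11 by edgeR), the groups stood far apart, and the fall kept its call in all 13 alternative settings. Nearer the gene the change was upward. The peak chr12:57111604-57112644, 1.83 kb upstream of the start, had 23.3 and 21.96 CPM in sg1 libraries against 15.6 and 14.7 CPM in control libraries (0.57, SE 0.10, adjusted p = 1.93e-05 by edgeR). The gene's extent reaches past the start used here, to 57111362, so this peak lay only 0.242 kb outside the gene. The taller of the peaks at the STAT6 start, chr12:57110920-57111596, had 11.6 and 11.2 CPM in sg1 libraries against 8.36 and 10.2 CPM in control libraries (0.31, SE 0.13, adjusted p = 0.0713 by edgeR) and did not pass, although it did without control replicate 2 (0.0174). The peak over the start base that RefSeq gave, chr12:57110273-57110905, had 8.27 and 9.89 CPM in sg1 libraries against 9.09 and 9.72 CPM in control libraries (-0.05, SE 0.14, adjusted p = 0.827 by edgeR). Those groups overlapped.

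In all, 2 of the 15 tested STAT6 peaks fell, 5 rose and 8 did not pass. Of the 5 that rose, 3 lie in the neighbouring genes NEMP1 and NAB2, 21.4 to 23.0 kb from the STAT6 start. The strongest of them, chr12:57087130-57087414, had 8.18 and 7.56 CPM in sg1 libraries against 5.01 and 4.44 CPM in control libraries (0.73, SE 0.17, adjusted p = 0.00104 by edgeR). Inside STAT6, chr12:57099109-57099305 fell by 1.36 and chr12:57102721-57103014 rose by 1.03 on the log2 scale (adjusted p = 0.0250 and 0.0430 by edgeR), both from under 2 CPM. Each of these calls was lost in DESeq2 (adjusted p = 0.181 and 0.255), without control replicate 1 (0.123 and 0.494), without sg1 replicate 1 (0.306 and 0.175) and without sg1 replicate 2 (0.0523 and 0.109).

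STAT2, which joins IRF9 in the interferon-activated complex that binds ISRE motifs, had the most accessible start of the 9 genes per kb of peak. Its CPM there was below that of the wider STAT3 start peak. The start peak chr12:56359826-56360699 had 45.5 and 43.8 CPM in sg1 libraries against 42.7 and 41.2 CPM in control libraries (log2 fold change 0.09, SE 0.07, adjusted p = 0.352 by edgeR); with scaling on gene-end peaks the value was -0.07. Of its 4 tested peaks 1 fell and 1 rose, and both lie in neighbouring genes. In IL23A, which encodes an interleukin subunit, chr12:56338654-56338918 had 0.452 and 0.583 CPM in sg1 libraries against 1.90 and 1.89 CPM in control libraries. It was 3.65-fold lower in sg1 (-1.87, SE 0.36, adjusted p = 0.000176 by edgeR) and kept this call in all 13 alternatives. In PAN2, chr12:56333533-56334493 had 28.3 and 26.1 CPM in sg1 libraries against 23.3 and 20.4 CPM in control libraries (0.31, SE 0.09, adjusted p = 0.00743 by edgeR), a call lost with scaling on gene-end peaks (0.199), without control replicate 2 (0.0646) and without sg1 replicate 1 (0.121).

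STAT4 is best known from IL12 signalling in lymphocytes. Of its 17 tested peaks 4 fell, 1 rose and 12 did not pass (2 lower and 0 higher by DESeq2), with a median of -0.39. These are 23.5% lower and 5.88% higher, where 24.5% and 4.69% of the other tested peaks within 1 Mb were, with a median of -0.10. The largest change was at chr2:191026349-191026794, 2.78 kb past the 3′ end of the gene and in the antisense transcript STAT4-AS1. It had 0.475 and 0.862 CPM in sg1 libraries against 2.92 and 3.39 CPM in control libraries, 4.72-fold lower in sg1 (log2 change -2.24, SE 0.32, adjusted p = 1.59e-06 by edgeR), and the call held in all 13 alternatives. The other falling peaks lie 35.0 to 45.7 kb into the gene. Of these, chr2:191114428-191114894 had 1.06 and 0.634 CPM in sg1 libraries against 2.29 and 1.96 CPM in control libraries (-1.32, SE 0.33, adjusted p = 0.00262 by edgeR). Its neighbour chr2:191115851-191116143 fell by 0.98 and chr2:191105150-191105435 by 1.03 on the log2 scale (adjusted p = 0.0104 and 0.0319 by edgeR). Without sg1 replicate 2 the peak at 191114428 was lost (0.0881). The call at 191115851 was lost without control replicate 1 (0.0970) and without sg1 replicate 1 (0.141), and the call at 191105150 without control replicate 1 (0.742) or either sg1 library (0.0977 and 0.166). DESeq2 called neither of these (0.0959 and 0.219). The peak at 191105150 rested on control replicate 1, which had 2.24 CPM where control replicate 2 had 0.978 CPM.

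The rising STAT4 peak, chr2:191041511-191042202, had 6.17 and 5.94 CPM in sg1 libraries against 4.52 and 3.07 CPM in control libraries (0.65, SE 0.19, adjusted p = 0.0106 by edgeR; 0.129 without control replicate 2 and 0.0763 without sg1 replicate 1). This call was also lost in DESeq2 (adjusted p = 0.0708), with scaling on gene-end peaks (0.0522) and when thinned (0.0542). At its start site, chr2:191150215-191151387 had 10.3 and 10.5 CPM in sg1 libraries against 10.6 and 13.8 CPM in control libraries (-0.22, SE 0.13, adjusted p = 0.208 by edgeR). This start did not pass, but without control replicate 1, the lower of the control libraries, the adjusted p was 0.0261, and with scaling on gene-end peaks it was 0.0235 (log2 fold change -0.37).

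**Figure D2:**
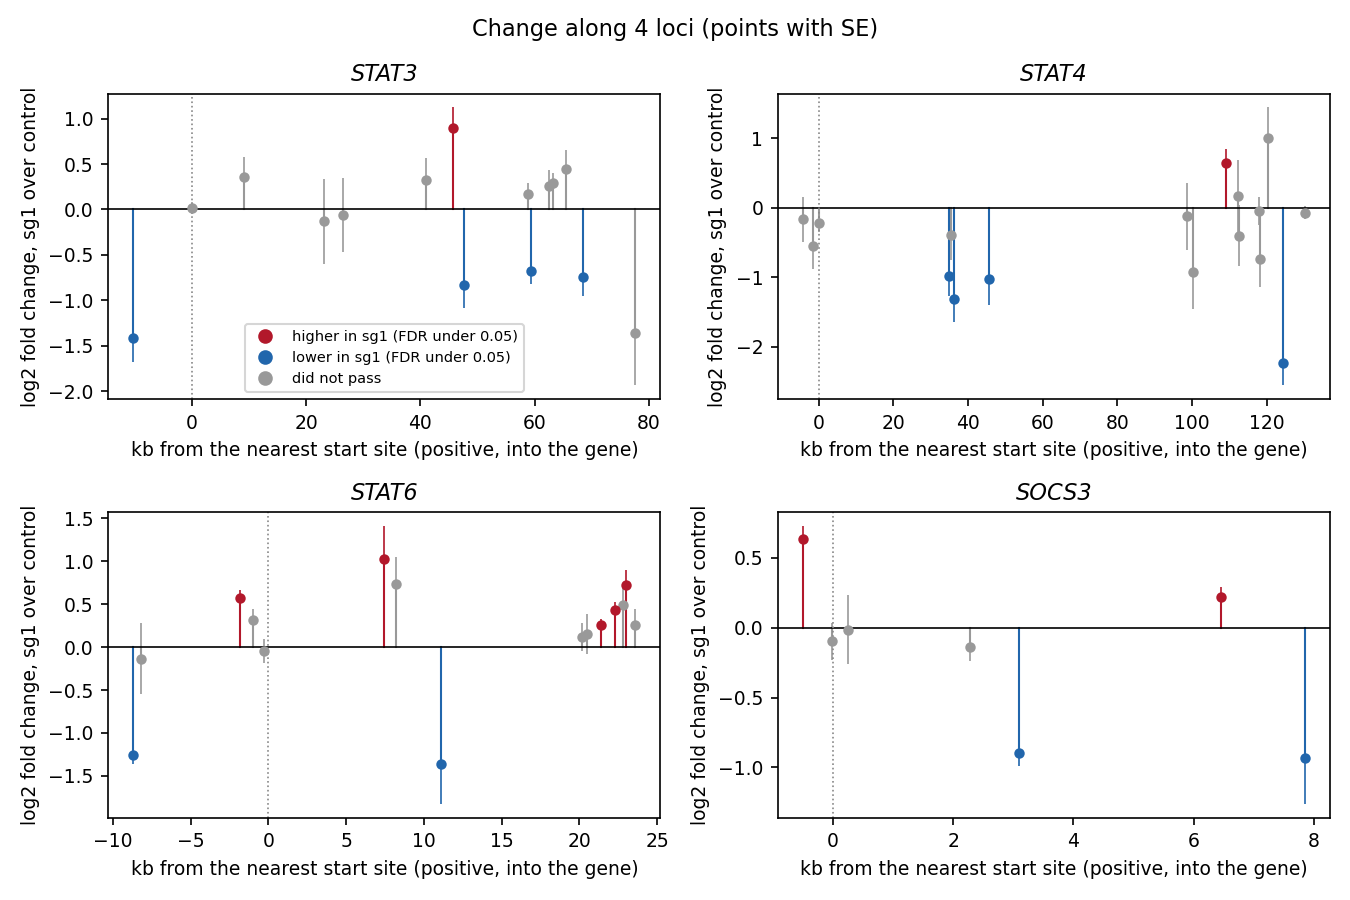
Log2 fold change with its SE (y axis, sg1 over control) of each tested peak of STAT3, STAT4, STAT6 and SOCS3 against the distance of its centre from the nearest start site in kb (x axis, positive into the gene). The start peaks of STAT3 and STAT4 lie at 0.01 and -0.22, and the falls of -1.25 and -1.42 upstream of STAT6 and STAT3 lie 8.67 and 10.2 kb before the start.

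SOCS3, the inhibitor that binds IL6ST and its kinases, gained accessibility just downstream of its first start and lost it at the other end of the gene. Of its 7 tested peaks 2 fell, 2 rose and 3 did not pass. The peak chr17:78359779-78360553, which covers 139 of the bases shown for the second start and also lies in the divergent transcript SOCS3-DT, had 23.8 and 22.2 CPM in sg1 libraries against 15.6 and 14.0 CPM in control libraries. It was 1.55-fold higher in sg1 (log2 change 0.63, SE 0.10, adjusted p = 5.89e-06 by edgeR). The peak over the first start, chr17:78360815-78361084, had 9.20 and 11.0 CPM in sg1 libraries against 10.0 and 11.7 CPM in control libraries, with overlapping groups (-0.10, SE 0.13, adjusted p = 0.621 by edgeR). Capitals in the first SOCS3 sequence mark its 209 bases there. At the 3′ end, chr17:78356374-78356775 had 13.9 and 13.5 CPM in sg1 libraries against 25.1 and 26.2 CPM in control libraries. It was 1.86-fold lower in sg1 (-0.90, SE 0.09, adjusted p = 2.83e-09 by edgeR). The rise at 78359779 and the fall at 78356374 lay 3.59 kb apart by their centres and each kept its call in all 13 alternatives. Farther past the 3′ end, chr17:78352768-78353660 rose by 0.22 and chr17:78351744-78351894 fell by 0.94 on the log2 scale (adjusted p = 0.0317 and 0.0290 by edgeR), calls lost in DESeq2 (0.125 and 0.166), without control replicate 2 (0.196 and 0.223), without sg1 replicate 1 (0.222 and 0.0717) and without sg1 replicate 2 (0.0610 and 0.213). With scaling on gene-end peaks the value at 78352768 was 0.06 (adjusted p = 0.608).

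SOCS2, an inhibitor best known for limiting growth hormone signalling, was the gene with the highest median, 0.37 over 10 tested peaks, of which 1 fell, 4 rose and 5 did not pass. The files used here give no strand for it. The peak chr12:93563704-93564589, 5.38 kb outside the gene, had 23.6 and 20.6 CPM in sg1 libraries against 11.96 and 13.4 CPM in control libraries. It was 1.76-fold higher in sg1 (log2 change 0.81, SE 0.10, adjusted p = 2.44e-07 by edgeR) and held in all 13 alternatives. The main gene-end peak, chr12:93570529-93571785, had 29.6 and 30.2 CPM in sg1 libraries against 22.8 and 24.3 CPM in control libraries (0.35, SE 0.08, adjusted p = 0.00153 by edgeR), and its neighbour at 93570004 rose by 0.39 (adjusted p = 0.0280 by edgeR). That neighbour was not called by DESeq2 (0.146), with scaling on gene-end peaks (0.207), when thinned (0.0913), without control replicate 1 (0.214) or without either sg1 library (0.181 and 0.0998). With scaling on gene-end peaks the main peak had 0.19 and missed the threshold (adjusted p = 0.0794). The peak at the opposite end, chr12:93624590-93625716, rose by 0.33 (adjusted p = 0.0247 by edgeR, 0.135 in DESeq2, and 0.0552 to 0.243 without control replicate 1 or either sg1 library). Inside the gene, chr12:93574022-93574198 had 0.678 and 0.659 CPM in sg1 libraries against 2.53 and 2.22 CPM in control libraries, 3.55-fold lower in sg1 (-1.83, SE 0.32, adjusted p = 5.08e-05 by edgeR) and held in all 13 alternatives.

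SOCS1, which blocks Janus kinases directly and is induced by interferons, had 3 tested peaks. The start peak chr16:11255490-11256441, which covers 287 of the 300 bases shown, had 23.0 and 23.8 CPM in sg1 libraries against 19.0 and 18.0 CPM in control libraries. It was 1.26-fold higher in sg1 (log2 change 0.34, SE 0.09, adjusted p = 0.00478 by edgeR), and both sg1 libraries lay above both control libraries. The call was lost with scaling on gene-end peaks (0.18, adjusted p = 0.137) and without sg1 replicate 2 (adjusted p = 0.0567). The other peaks, chr16:11256469-11256978 and chr16:11257253-11257582, had log2 fold changes of 0.08 and 0.14 (adjusted p = 0.689 and 0.552 by edgeR). No SOCS1 peak fell by edgeR or DESeq2, and 0 did at an unadjusted p under 0.05 in edgeR.

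**Figure D3:**
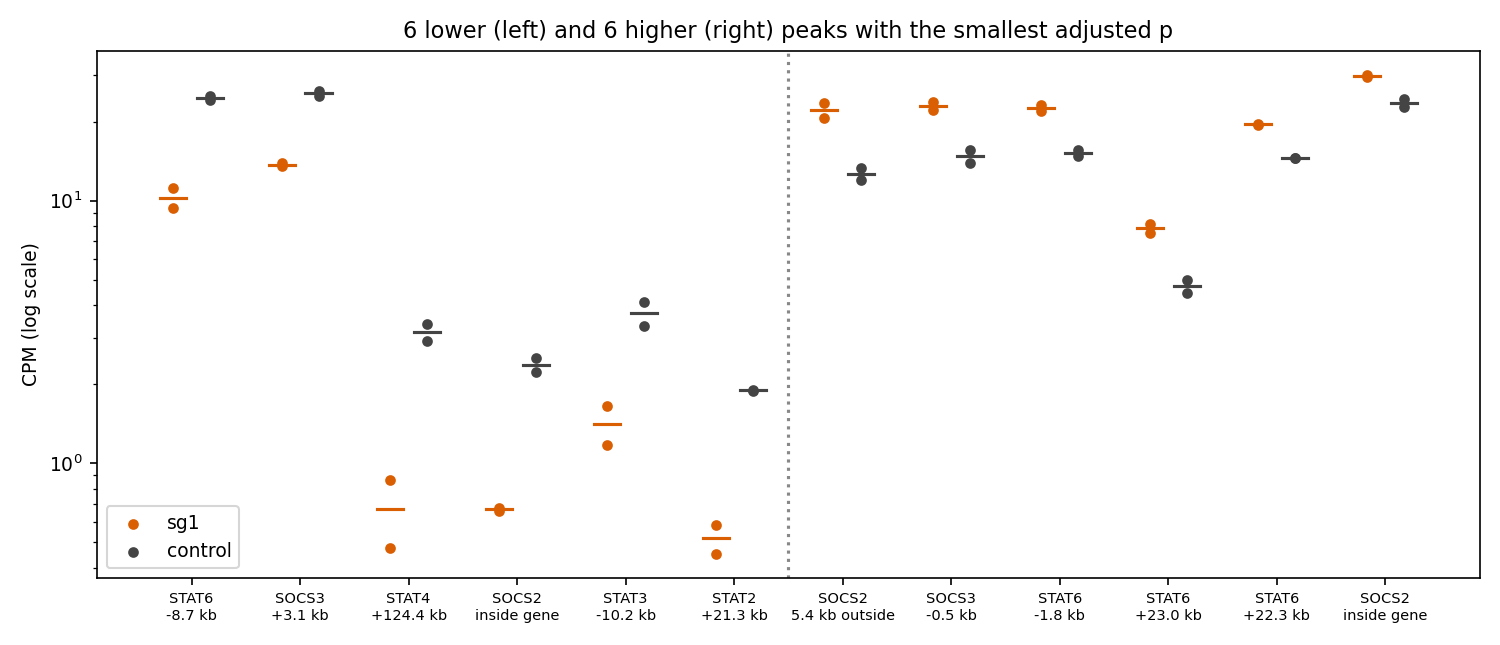
CPM per library on a log scale (y axis) for the 6 lower (left) and 6 higher (right) peaks with the smallest adjusted p, named by gene and by distance from the nearest start site (SOCS2, from the gene); bars are group means. At STAT6, 8.7 kb upstream, sg1 libraries had 11.1 and 9.38 CPM and control libraries 24.2 and 25.0 CPM, and no pair of groups overlaps.

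Per kb of peak, which allows levels to be compared between genes, the start peaks with the most CPM (for SOCS2, the gene-end peak) ran in sg1 libraries from STAT2 at 51.1 ± 1.41 CPM per kb down to STAT5B at 8.24 ± 0.546 CPM per kb (SD, n = 2). STAT3 came next in sg1, with 33.9 ± 0.350 CPM per kb against 33.6 ± 0.563 in control, and the SOCS3 peak at 78359779 followed, with 29.7 ± 1.53 against 19.1 ± 1.503 (SD, n = 2 each). The narrower peak over the first SOCS3 start, 78360815, had a higher mean than STAT3, with 37.5 ± 4.80 CPM per kb in sg1 and 40.3 ± 4.52 in control, so the place of SOCS3 in this order depends on the peak. SOCS1 had 24.6 ± 0.544 and 19.4 ± 0.712, and SOCS2 23.8 ± 0.336 and 18.7 ± 0.860 CPM per kb in sg1 and in control. In control libraries these peaks of SOCS1, SOCS3 and SOCS2 did not differ beyond their spread, while in sg1 libraries that of SOCS3 stood above those of SOCS1 and SOCS2. STAT6 had 16.8 ± 0.352 and 13.7 ± 1.89, STAT5A 12.5 ± 0.193 and 8.35 ± 0.0999, and STAT4 8.86 ± 0.101 and 10.4 ± 1.88 CPM per kb in sg1 and in control. STAT5B had 5.91 ± 0.319 CPM per kb in control. STAT4 was thus above STAT5A in control and below it in sg1, without a test of that order. Of these 9 start peaks, 5 passed the test and all 5 were higher in sg1: those of all SOCS genes, STAT5A and STAT5B. Over all genes, 8.95% of the tallest gene-end peaks were lower and 30.2% higher, but that rule takes a peak at either gene end. By that rule SOCS3 would be given by its peak at 78356374, which was lower in sg1 (-0.90). STAT6 would be given by 57111604, which was higher (0.57), and STAT5A and STAT5B would share the peak at 42287232.

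**Figure D4:**
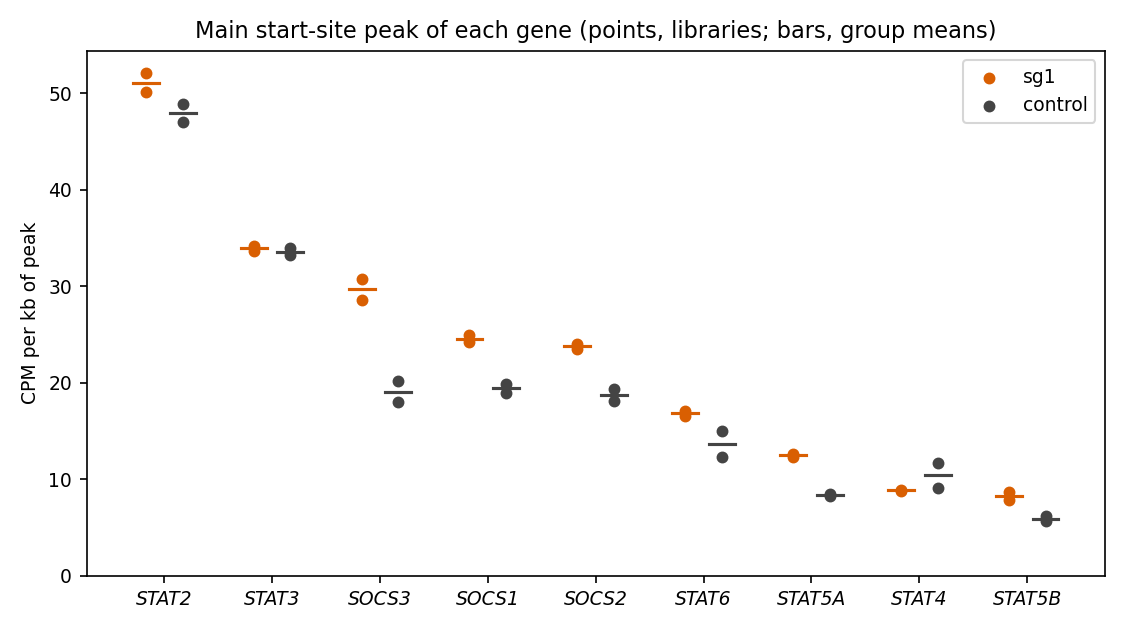
CPM per kb of peak (y axis) at the start-site peak with the most CPM of each gene, for SOCS2 the gene-end peak (x axis, ordered by the sg1 mean); points are libraries and bars group means. SOCS3, by its peak at 78359779, stands at 29.7 in sg1 and 19.1 in control, while STAT3 stands at 33.9 and 33.6.

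Summed over all peaks of a gene, changes were smaller than at single peaks. SOCS2 had 104 ± 0.718 CPM in sg1 and 78.8 ± 3.92 CPM in control, and STAT5B 55.2 ± 0.0880 and 43.6 ± 2.03 CPM (SD, n = 2 each). STAT4 was the gene with the clearest lower sum, 49.5 ± 0.283 CPM in sg1 and 57.0 ± 1.99 CPM in control. SOCS3, whose strong rise and fall lie in the same sum, had 103 ± 0.574 CPM in sg1 and 105 ± 0.809 CPM in control. STAT3 sums were likewise close, at 119.6 ± 0.661 and 118.7 ± 1.501 CPM. No test was run on these sums.

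The surroundings of the other genes differed as well. Among the other tested peaks within 1 Mb of STAT6 6.17% fell and 28.4% rose (median 0.36), and around STAT2, whose surroundings overlap those of STAT6, 7.21% and 25.2% (median 0.34). Around SOCS2 the shares were 15.3% and 13.4%, with a median of 0.00 (its own peaks 10% and 40%). STAT3, STAT5A and STAT5B have overlapping surroundings. Around STAT3 7.61% fell and 17.4% rose (own peaks 26.7% and 6.67%). The shares were 8.02% and 16.8% around STAT5A (own 16.7% and 33.3%) and 8.56% and 17.1% around STAT5B (own 16.7% and 25%). They were 24.5% and 13.5% around SOCS1 (own 0% and 33.3%) and 17.3% and 16.2% around SOCS3 (own 28.6% and 28.6%). The part of the surroundings in the values of the genes was not tested.

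By family, of 63 tested STAT peaks 13 fell and 11 rose, and of 20 SOCS peaks 3 fell and 7 rose. Of all near-gene peaks 15.5% fell and 12.2% rose. The families also differed in height, with a median of 2.75 CPM over STAT peaks and 10.2 CPM over SOCS peaks. The median was 0.09 for STAT peaks and 0.30 for SOCS peaks; with scaling on gene-end peaks these were -0.07 and 0.14, so the sign for STAT peaks depends on the scaling. Among 29 peaks within 1 kb of an end of a protein-coding gene, 2 fell and 10 rose, where 7.28% and 21.2% of all such peaks did. Among the 54 others, 14 fell and 8 rose, where 17.6% and 9.99% of all such peaks did. The differences between families and between positions were not tested.

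Peak width was split after the values were seen and is given as a description. Of 25 peaks of 600 bp or more, 1 fell and 14 rose, where 20.0% and 23.3% of all near-gene peaks of that width did. Of 24 peaks of 300 bp to under 600 bp, 8 fell and 2 rose, where 21.2% and 12.6% did, and of 34 narrower peaks 7 fell and 2 rose, where 9.88% and 6.40% did. The wide peak that fell was the STAT6 upstream peak.

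**Figure D5:**
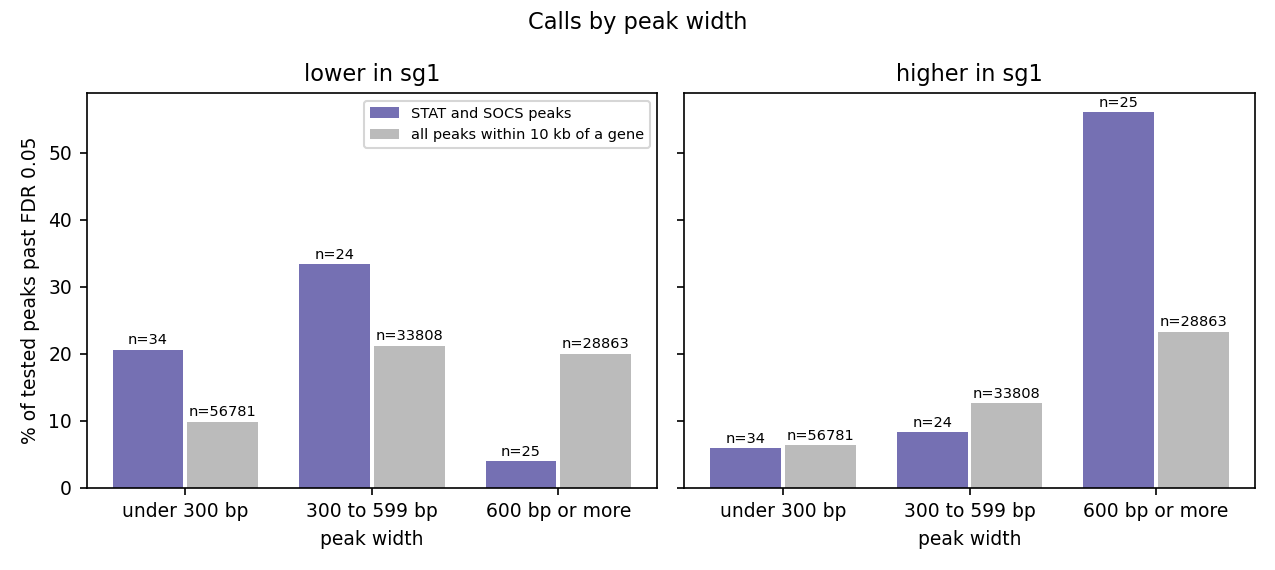
Share of tested peaks (y axis, %) called lower (left) or higher (right) in sg1 by peak width (x axis), for the peaks of the 9 genes and for all tested peaks within 10 kb of a gene, with the number of peaks above each bar. At 600 bp or more, 14 of 25 peaks of the 9 genes were higher and 1 lower, where all near-gene peaks gave 23.3% and 20.0%.

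The rest of the pathway was described gene by gene through its tallest gene-end peak, in lists of 69 genes of which 64 had a tested peak. Such a peak lies within 1 kb of either end of a gene, and starts were not told apart from 3′ ends. Of these 64, 7 fell, 17 rose and 40 did not pass, and their median log2 fold change was 0.11. Over all genes 8.95% of such peaks fell and 30.2% rose, and the median was 0.15. These edgeR shares are the ones to set beside each list below. With scaling on gene-end peaks the counts were 18 lower and 8 higher, where 23.3% and 6.77% of all tested peaks were. DESeq2 gave 5 and 10, where it called 9.67% and 4.59% of all tested peaks. Shares over the tallest gene-end peaks alone are not given for these settings. That scaling moved the median of all tested gene-end peaks from 0.17 to 0.01, so the lean of the lists moved with a general shift.

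Of 8 tested ligand genes 1 fell and 1 rose, with a median of -0.12. IL6, the founding STAT3-activating cytokine, had 23.7 and 23.6 CPM in sg1 libraries against 29.6 and 30.6 CPM in control libraries (log2 fold change -0.35, SE 0.08, adjusted p = 0.00130 by edgeR). CTF1, cardiotrophin, rose by 0.23 (adjusted p = 0.0403 by edgeR, 0.167 in DESeq2). Of 23 tested receptor genes 2 fell and 5 rose, with a median of 0.25 (1 and 2 by DESeq2). LEPR, the leptin receptor, whose peak also serves LEPROT, had 54.9 and 57.4 CPM in sg1 libraries against 43.8 and 45.3 CPM in control libraries (0.34, SE 0.07, adjusted p = 0.000196 by edgeR). IL13RA1, a receptor upstream of STAT6, had 38.9 and 42.1 CPM in sg1 libraries against 52.0 and 50.2 CPM in control libraries (-0.34, SE 0.07, adjusted p = 0.000286 by edgeR). IL2RG was barely accessible, with 0.0452 and 0.203 CPM in sg1 libraries against 0.729 and 0.718 CPM in control libraries (adjusted p = 0.00149 by edgeR, and 0.142 without sg1 replicate 1). The other rising receptor genes were IFNGR1, IFNAR2, OSMR and EPOR, by 0.25 to 0.49, named here to complete the count.

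Among the 4 Janus kinases, JAK1 and TYK2 rose and JAK2 fell by edgeR, while DESeq2 called JAK1 alone (adjusted p = 0.0873 for JAK2 and 0.119 for TYK2). JAK1 had 23.2 and 23.4 CPM in sg1 libraries against 18.7 and 16.0 CPM in control libraries (0.41, SE 0.09, adjusted p = 0.00102 by edgeR). JAK2 had 23.3 and 24.4 CPM in sg1 libraries against 29.3 and 28.0 CPM in control libraries (-0.27, SE 0.08, adjusted p = 0.0132 by edgeR). TYK2 had 26.7 and 27.3 CPM in sg1 libraries against 24.0 and 21.1 CPM in control libraries (0.25, SE 0.09, adjusted p = 0.0258 by edgeR).

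Of 12 other tested regulators, which are inhibitors and phosphatases, 5 rose and 0 fell by edgeR and 3 rose by DESeq2; 0 fell at an unadjusted p under 0.05 in edgeR and 0 in DESeq2. PTPN6, a phosphatase that dampens cytokine receptors, had 26.5 and 25.8 CPM in sg1 libraries against 17.7 and 15.6 CPM in control libraries (0.64, SE 0.09, adjusted p = 1.78e-06 by edgeR). This peak, chr12:6961190-6962492, lies at an end of PTPN6 and need not mark its start. PIAS1, a SUMO ligase that inhibits STATs, had 20.1 and 20.1 CPM in sg1 libraries against 12.01 and 12.9 CPM in control libraries (0.70, SE 0.10, adjusted p = 2.44e-06 by edgeR). SOCS7 rose by 0.46 (adjusted p = 0.000326 by edgeR), and PIAS3 and SOCS5, named to complete the count, rose by 0.26 and 0.27 by edgeR (adjusted p = 0.0507 and 0.0930 in DESeq2).

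Of 17 tested STAT target genes 3 fell and 4 rose, with a median of 0.01 here and -0.15 with scaling on gene-end peaks. ICAM1, an adhesion molecule, had 3.44 and 3.53 CPM in sg1 libraries against 13.8 and 9.20 CPM in control libraries (-1.74, SE 0.17, adjusted p = 1.18e-09 by edgeR). CCND1, the cyclin D gene, had 36.0 and 34.4 CPM in sg1 libraries against 46.9 and 49.2 CPM in control libraries (-0.45, SE 0.07, adjusted p = 7.13e-06 by edgeR). This peak, chr11:69654090-69656408, also lies at an end of LOC124902704 and need not mark the CCND1 start. PIM1, a kinase gene induced by STAT3 and STAT5, had 57.0 and 55.2 CPM in sg1 libraries against 40.2 and 41.6 CPM in control libraries (0.46, SE 0.07, adjusted p = 2.35e-06 by edgeR). TIMP1 also fell, and CEBPB, BCL2L1 and BCL6 also rose, named to complete the counts; BCL6 was not called without control replicate 1.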

How the data were processed

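ATAC-seq was done on 4 libraries of LM2 cells. The authors deposited raw counts for 190348 peaks. Their counter, per the file headers, was featureCounts 1.6.0, run single-end on cut-site files, so a fragment can count at both ends. The submitters' processing notes list Trimmomatic 0.39, MACS2 2.2.4, deepTools 3.1.3, DESeq2 1.32, CASAVA, SAMtools and Bowtie2; the build was not given in the sources used here. RefSeq's gene table of GRCh38.p14 placed a peak within 1 kb of an end for 73.3% of 20052 protein-coding genes, against 30.8% after a shift of 100 kb. Peak positions are as deposited, and their start may be off by 1 base. Gene extents were used, without exons or introns.

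All 109 peaks in the first 250 kb of chromosome 1 were left out of library sizes and tests. The depth used was 43519018 and 38924086 counts in sg1 libraries and 21002477 and 15561701 in control libraries; the lower control depth limits precision there. edgeR 4.0.16 (R 4.3.3, limma 3.58.1) was used with filterByExpr, TMM scaling (factors 0.981 to 1.02) and the quasi-likelihood test on group, adjusted by Benjamini-Hochberg at 0.05. The test was checked on simulated counts of 179858 peaks, with 47 to 50 peaks changed at each fold. It recovered 6% of 1.25-fold, 31.25% of 1.5-fold, 40.8% of 2-fold and 74.5% of 4-fold changes, with 5 false calls. Far fewer peaks were changed there than were called in these data, so the shares may not carry over. A peak that did not pass may still have changed. Alternatives were DESeq2 1.42.0, other scalings and filters, thinning, a replicate block and leaving out each library. Python 3.11.15, pandas 2.3.3, scipy 1.17.1, numpy 2.4.6 and matplotlib 3.10.9 were used.

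The genes, lists and chromosome 1 rule were chosen with earlier results of these data known. Named peaks are the tallest start-site peak of each gene (gene-end for SOCS2), up to 3 called peaks per gene and direction by p, and called peaks past a log2 fold change of 1; per list, up to 3 called genes by p. The peaks at 57110273, 42288138, 42340590, 93570004, 78360815, 11256469 and 11257253, the CECR2 peak, markers named with a value and genes said to complete a count were named after their values were seen.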

Additional observations from a re-analysis of the deposited data

How the results depend on the processing

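Each count, the median and 35 named peaks were recomputed under 13 alternatives; 13 of the 31 called peaks kept their call in all of them. With DESeq2, 8 peaks of the 9 genes were lower and 11 higher, and 10 pathway genes higher. With scaling on gene-end peaks, 8 peaks were higher and the median log2 fold change was -0.0055; 8 pathway genes were higher and 18 lower. With library size alone the median was 0.20. Thinned to the depth of the shallowest library, 9 peaks were lower. Leaving out each library in turn gave 8 to 16 lower and 10 to 19 higher peaks, a median of 0.058 to 0.23, and 5 to 8 lower and 12 to 17 higher pathway genes. The STAT2 start peak turned to -0.067 with scaling on gene-end peaks. The STAT3 start peak turned to -0.14 with that scaling, to -0.000965 when thinned, and lay between -0.0063 (without control replicate 1) and 0.040 with a library left out. The cause was not tested. Replicate numbers were shared without a pairing in the labels, and same-numbered libraries did not deviate together (correlation 0.00013); with a replicate block 16 peaks were lower and 18 higher, 7 and 18 pathway genes, and the call changed at 0 of the 35 named peaks. With 2 libraries per group and fewer counts in control libraries, narrow peaks under 1 CPM are the least certain.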
